A study of Homo sapiens with 6 samples.

Results

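The 10 genes described here encode the 4 human Argonaute proteins (AGO1, AGO2, AGO3, and AGO4), the enzymes and carriers that make microRNAs (DROSHA, DGCR8, XPO5, and DICER1), and 2 scaffolds of the silencing complex (TNRC6A and TNRC6B). They were chosen by gene symbol, and all 10 were found among the 46427 genes of the deposited table. Transcript levels were measured by RNA-seq of total RNA from 3 non-small cell lung cancer (NSCLC) cell lines, H460, H1299, and A549. Each cell line gave 1 library of cells treated with a small interfering RNA (siRNA) against MALAT1, named si-MALAT1, and 1 control library, 6 libraries in all. MALAT1 is an abundant nuclear long non-coding RNA, and the study asked which transcripts change when it is lowered. The labels give the control cells as non-treated, whereas the methods name both negative controls and si-Control cells without saying which were sequenced, so MALAT1 knockdown, transfection, and the presence of an siRNA cannot be told apart in these libraries. All 3 cell lines are established epithelial cancer lines, and a cell line with 1 library per condition has no replicate check.

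MicroRNAs are short RNAs that lower the stability and translation of messages they pair with. In the nucleus, DROSHA cuts the primary transcript with the help of DGCR8, which binds double-stranded RNA, and XPO5 carries the resulting hairpin to the cytoplasm. DICER1 then cuts the hairpin to a short duplex, an Argonaute protein keeps a single strand of it, and TNRC6 (GW182) proteins link Argonaute to the enzymes that shorten the poly(A) tail and remove the cap. An siRNA enters the same pathway at the Argonaute step, and AGO2 is the Argonaute with the best established slicing activity. MicroRNAs themselves were not measured here.

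The libraries held 42506818 to 68515992 reads counted to genes, and the A549 libraries were the shallowest. Deposited MALAT1 reads went from 231045 to 43858 between control and si-MALAT1 for H460, from 407551 to 47935 for H1299, and from 93747 to 14447 for A549. It was lower after si-MALAT1 in 3 of 3 cell lines, by 4.98-fold, 7.76-fold, and 7.17-fold on RLE-scaled counts, which are counts divided by a library's median ratio to the geometric mean of the libraries (edgeR quasi-likelihood test, adjusted p = 0.0381). That adjusted p was 0.125 without H1299, 0.275 without A549, and 0.171 with no filter on low counts. The epithelial keratins KRT8 and KRT18 had at least 11408 reads in each library, while CDH1 had 2 to 13 reads in the H460 and H1299 libraries and KRT19 had 17 to 121 in H1299 and A549. The leukocyte markers PTPRC and CD3E and the endothelial marker CDH5 had 0 reads in the 6 libraries, and the endothelial marker PECAM1 had at most 8.

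On hg38, AGO4, AGO1, and AGO3 lie next to each other on the plus strand of chromosome 1, at 35807630 to 35857890, 35869808 to 35930532, and 35925683 to 36072500. AGO1 and AGO3 overlap, and the shared 4850 exon bases are 34.7% of AGO1's exon bases and 17.3% of AGO3's, so reads there could be split between both genes and their counts are uncertain to that extent. DROSHA lies on chromosome 5 (31400494 to 31532142, minus strand), DGCR8 on chromosome 22 (20080232 to 20111877, plus strand), XPO5 on chromosome 6 (43522330 to 43576075, minus strand), and DICER1 on chromosome 14 (95086228 to 95158263, minus strand). TNRC6A is on chromosome 16 (24610205 to 24826223, plus strand), and TNRC6B is on chromosome 22 (40044817 to 40335808, plus strand). The 3′ untranslated regions (3′ UTRs), the stretch after the coding sequence where most known microRNA pairing takes place, ranged from 938 bases in DROSHA to 16755 bases in AGO3. Of the 10 genes, 6 were at or above the 80th percentile of 3′ UTR length among the 12724 genes that had a 3′ UTR in the deposited gene models and a read in each library, whose median was 1415 bases.

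A pair of 7-base words, TGAATCA and ATGAATC, was picked because an earlier look at these libraries had found them often in the 3′ UTRs of lowered genes, so what follows is a description and no independent evidence. Among the 12724 genes, 18.4% held at least 1 of these words in the 3′ UTR on the transcript strand. The share was 66.0% of the 150 genes that were lower by 1.5-fold or more in each cell line and 8.15% of the 135 genes that were higher by as much, with median 3′ UTR lengths of 1664 and 2079 bases. Of the 10 genes, 8 held a word, and AGO4 and XPO5 held none. The sites below are shown because they let the words be read in genes that were higher and in genes that were lower after si-MALAT1. TNRC6B was lower in H460 and A549 only. The list is partial, since the AGO1 and AGO2 sites and further AGO3 and TNRC6B sites are left out. Each site shown runs 5′ to 3′ on the transcript strand of hg38, and capitals mark the word, or both words where they overlap.
DROSHA, chr5:31400822-31400850, minus strand: tacagattcttTGAATCAttagaatagga
DGCR8, chr22:20111733-20111761, plus strand: caagcatgggtATGAATCgtgcacacagc
AGO3, chr1:36058146-36058175, plus strand: catttactaaaATGAATCAggaaaatgcaa
TNRC6B, chr22:40332426-40332455, plus strand: tcttgcctgtgATGAATCAtagcgcctgca
TNRC6A, chr16:24823953-24823981, plus strand: gtttgaatactTGAATCAtgcaggccaat
DICER1, chr14:95089876-95089904, minus strand: tggcatgttggTGAATCAcattttagttt
DICER1, chr14:95087159-95087187, minus strand: tgctttggttcATGAATCcaggtgttccc

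The words were more common in longer 3′ UTRs. In the 3′ UTRs within 0.8 to 1.25 times the length of the gene's own, a word was found in 9.81% for DROSHA, 18.0% for DGCR8, 22.1% for TNRC6A, and 37.5% for DICER1. The same share was 69.9% for AGO1, 77.2% for AGO2, 79.2% for TNRC6B, and 87.2% for AGO3. A word match is not a measured site, and its part in any change given here was not tested.

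Transcript levels in the controls were compared between genes as TPM, which is scaled for transcript length. DICER1 had the highest mean (16.9 TPM, n = 3 control libraries), followed by XPO5 with 16.6, DROSHA with 11.1, AGO2 with 8.51, TNRC6A with 7.06, DGCR8 with 6.96, AGO1 with 6.78, AGO4 with 4.61, TNRC6B with 4.27, and AGO3 with 4.14. No neighbours in this order differed by more than the larger of their SDs over the 3 cell lines. XPO5 was above DROSHA in 3 of 3 controls. The deposited FPKM values gave the same rank to 10 of 10 genes. Within a library FPKM and TPM differ only by a common factor, so that rank is no independent check.

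After si-MALAT1, AGO2, AGO4, DICER1, and TNRC6A were higher in 3 of 3 cell lines, and AGO3, DROSHA, DGCR8, and XPO5 were lower in 3 of 3. The 4 genes that were lower included the 3 that act up to the export of the hairpin, and the 4 that were higher included DICER1, which acts after it, and AGO2. The other gene that was lower, AGO3, is an Argonaute and acts after export, so the directions did not divide by step. Of all 17834 genes with a read in each library, 21.4% were higher and 18.8% lower in the 3 cell lines, and of the 10514 genes with a mean count of at least 500, to which all 10 belong, 25.0% and 20.8%. AGO1 and TNRC6B did not keep 1 direction, although TNRC6B, which was level in H1299, counts as lower in 3 of 3 with TMM-scaled or plain library totals (-0.011 and -0.0013 in H1299). RNA of whole cultures was read, so less RNA per cell and fewer cells with the RNA cannot be told apart. The plot of RLE-scaled counts shows each gene in each library.

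**Figure D1:**
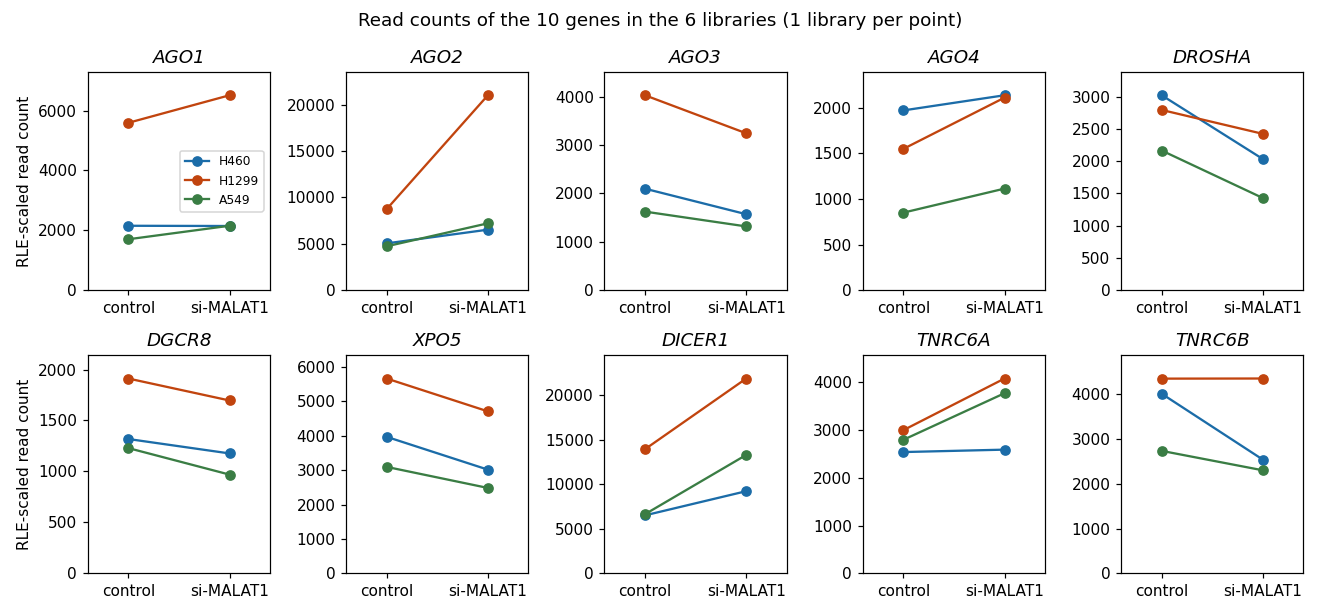
RLE-scaled read counts (vertical axes, linear, from 0) of the 10 genes in the control and si-MALAT1 libraries (horizontal axes), with each point a library and each line joining the libraries of a cell line. The lines of AGO2, AGO4, DICER1, and TNRC6A go up in the 3 cell lines and those of AGO3, DROSHA, DGCR8, and XPO5 go down.

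AGO2 lies on the minus strand of chromosome 8 (140520156 to 140642406). RLE-scaled AGO2 reads went from 5042 to 6521 between control and si-MALAT1 for H460, from 8729 to 21011 for H1299, and from 4726 to 7205 for A549. The H1299 si-MALAT1 library stood far above the other 5, and the control and si-MALAT1 groups overlapped because the H1299 control lay above the H460 and A549 libraries after si-MALAT1. The log2 fold change, taken as si-MALAT1 minus control, was 0.37 in H460 with a 95% interval of 0.32 to 0.42, 1.27 in H1299 with 1.23 to 1.3, and 0.61 in A549 with 0.55 to 0.67. These intervals are exact if the deposited counts are independent reads, and they cover counting error only. The counts are abundance estimates, so the intervals may be too narrow. Averaged over H460, H1299, and A549 it was 0.75 ± 0.46 (SD, n = 3).

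AGO1, a close relative of AGO2, went from 2152 RLE-scaled reads in the control to 2145 with si-MALAT1 for H460, from 5593 to 6515 for H1299, and from 1701 to 2153 for A549. It was close to level in H460 (log2 fold change -0.01, -0.09 to 0.08) and higher in H1299 (0.22, 0.17 to 0.27) and A549 (0.34, 0.24 to 0.44). AGO3, an Argonaute for which slicing is reported only with some guides, went from 2097 to 1569 RLE-scaled reads for H460, from 4028 to 3242 for H1299, and from 1623 to 1317 for A549. AGO3 was lower in 3 of 3 cell lines, with log2 fold changes of -0.42, -0.31, and -0.30 and a mean of -0.34 ± 0.06 (SD, n = 3), although it shares exon bases with AGO1, which was not lower beyond counting error in any cell line. AGO4, for which slicing has not been established, went from 1972 to 2139 RLE-scaled reads for H460, from 1550 to 2113 for H1299, and from 850 to 1115 for A549. AGO4 was higher in 3 of 3 cell lines, by log2 fold changes of 0.12, 0.45, and 0.39, but in H460 its deposited TPM was 5.93 in the control and 5.25 after si-MALAT1.

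The make-up of the Argonaute transcripts differed accordingly. Between control and si-MALAT1, AGO2 went from 33.8% to 40.5% of the summed Argonaute TPM for H460, from 33.2% to 52.9% for H1299, and from 43.0% to 48.0% for A549. AGO3 went from 13.7% to 9.08% for H460, from 18.5% to 8.32% for H1299, and from 18.2% to 10.3% for A549. The share of AGO2 was thus higher and that of AGO3 lower after si-MALAT1 in 3 of 3 cell lines. AGO3's share did not overlap between the groups, and AGO2's did. A share also falls when the rest of the sum rises. The RLE-scaled counts of AGO3 did overlap, since H1299 after si-MALAT1 (3242) lay above the H460 (2097) and A549 (1623) controls. On TPM AGO1 had the largest share of the 4 in the H1299 control, 34.7%, and AGO2 had it in the other 5 libraries. On read counts AGO2 had the largest share in the H1299 control too, 43.9% beside 28.1% for AGO1. The summed Argonaute TPM went from 18.7 to 18.2 for H460, from 38.4 to 61.0 for H1299, and from 15.0 to 21.8 for A549, so the H460 sum did not go up.

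**Figure D2:**
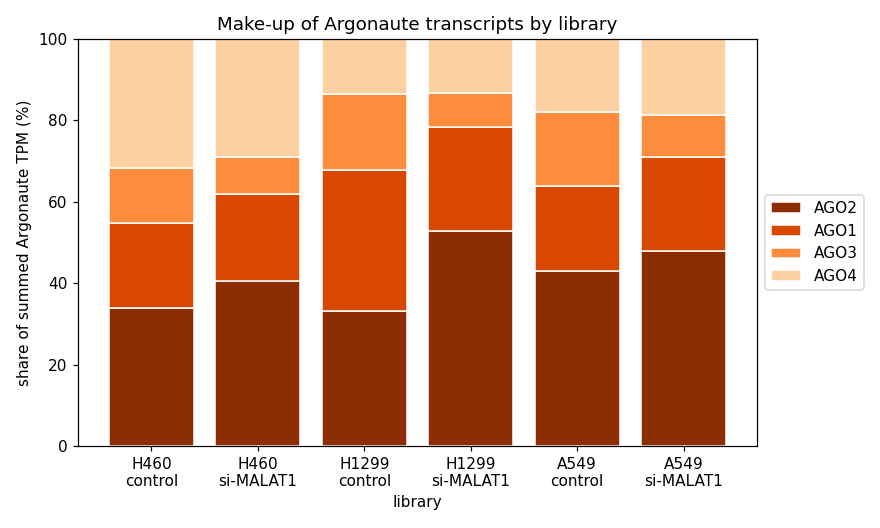
Share of the summed Argonaute TPM (vertical axis, percent) held by AGO2, AGO1, AGO3, and AGO4 in each of the 6 libraries (horizontal axis). AGO2 takes 33.2% of the H1299 control bar and 52.9% of the H1299 si-MALAT1 bar, and AGO3 is narrower after si-MALAT1 in each cell line.

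Of the nuclear steps, DROSHA, the RNase III enzyme that makes the first cut, went from 3024 RLE-scaled reads in the control to 2034 with si-MALAT1 for H460, from 2796 to 2425 for H1299, and from 2167 to 1429 for A549. It was lower in 3 of 3 cell lines, with log2 fold changes of -0.57 (95% interval -0.65 to -0.49), -0.21 (-0.28 to -0.13), and -0.60 (-0.71 to -0.49) and a mean of -0.46 ± 0.22 (SD, n = 3). DGCR8, DROSHA's partner, went from 1318 to 1177 RLE-scaled reads for H460, from 1912 to 1696 for H1299, and from 1230 to 969 for A549. Its log2 fold changes of -0.16, -0.17, and -0.34 were smaller than those of DROSHA in each cell line. The DGCR8 exons also hold the hairpins MIR3618 and MIR1306, which were listed with 2 and 3 reads in each of the 6 libraries. XPO5, the export carrier, went from 3972 to 3017 RLE-scaled reads for H460, from 5668 to 4712 for H1299, and from 3098 to 2485 for A549. XPO5 was lower in 3 of 3 cell lines, with a mean log2 fold change of -0.33 ± 0.07 (SD, n = 3). The changes were -0.40 (95% interval -0.46 to -0.33), -0.27 (-0.32 to -0.22), and -0.32 (-0.40 to -0.23), so the H460 and H1299 intervals did not overlap. On log2 of TPM plus 1 they were -0.49, -0.19, and -0.30.

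DICER1, the cytoplasmic RNase III enzyme, went from 6520 RLE-scaled reads in the control to 9236 with si-MALAT1 for H460, from 13948 to 21892 for H1299, and from 6648 to 13310 for A549. It was higher in 3 of 3 cell lines, with log2 fold changes of 0.50 (95% interval 0.46 to 0.55), 0.65 (0.62 to 0.68), and 1.00 (0.95 to 1.05) and a mean of 0.72 ± 0.26 (SD, n = 3). The control and si-MALAT1 groups overlapped through H1299, whose control lay above both other si-MALAT1 libraries. The antisense gene DICER1-AS1, which shares 213 exon bases with DICER1, went from 108 to 65 deposited reads for H460, from 191 to 70 for H1299, and from 90 to 42 for A549. It was lower where DICER1 was higher in each cell line, and whether the counting used the strand is not given in the sources used here, so reads in the shared bases cannot be told apart. The ratio of DICER1 to DROSHA TPM, the RNase III enzymes of the pathway, went from 0.951 to 2.04 for H460, from 2.19 to 4.31 for H1299, and from 1.32 to 4.16 for A549. On this ratio too the groups overlapped, since the H1299 control lay above H460 after si-MALAT1.

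The scaffolds TNRC6A and TNRC6B differed from each other. TNRC6A went from 2535 to 2586 RLE-scaled reads for H460, from 2992 to 4072 for H1299, and from 2791 to 3765 for A549, with log2 fold changes of 0.03 (95% interval -0.05 to 0.11), 0.44, and 0.43. In H460 its change was within counting error and its sign was the opposite on the TPM scale, where it had 5.88 and 5.34 TPM. TNRC6B went from 4003 to 2534 RLE-scaled reads for H460, from 4340 to 4343 for H1299, and from 2730 to 2297 for A549. Its log2 fold change was -0.66 (-0.73 to -0.59) in H460, 0.00 (-0.05 to 0.06) in H1299, and -0.25 (-0.34 to -0.16) in A549, so it was lower in H460 and A549 and level in H1299 within counting error. On RLE-scaled counts TNRC6B had the largest decrease of the 10 genes in H460, and on log2 of TPM plus 1 DROSHA had it (-0.64, beside -0.60 for TNRC6B).

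**Figure D3:**
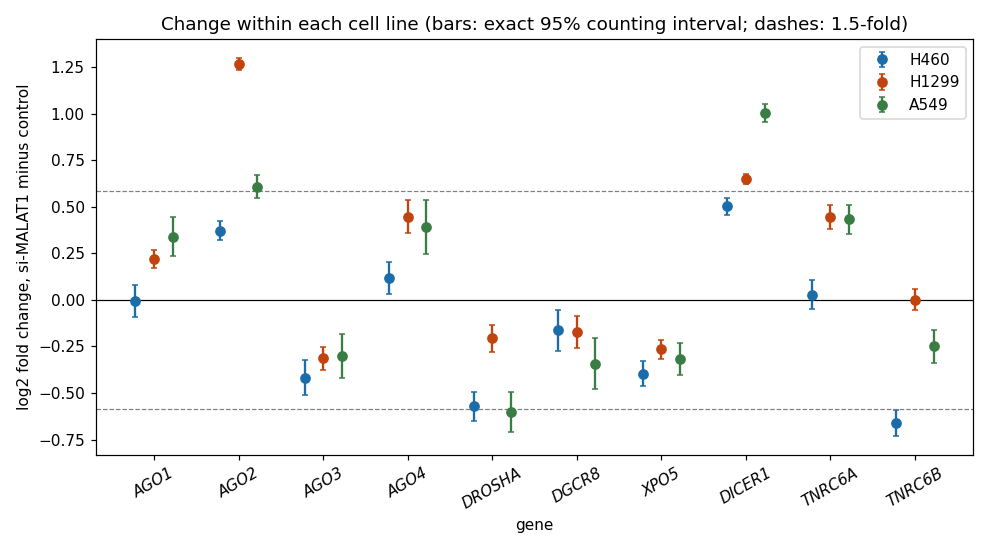
Log2 fold change, si-MALAT1 minus control, of the 10 genes (horizontal axis) in H460, H1299, and A549, on RLE-scaled counts plus 1, with exact 95% intervals for counting error and dashed lines at 1.5-fold. The 3 points of AGO2, AGO4, and DICER1 and their bars lie above 0 and those of AGO3, DROSHA, DGCR8, and XPO5 below 0, while TNRC6B is spread from -0.66 to 0.00.

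The counting interval lay above 0 in the 3 cell lines for 3 of the 10 genes (AGO2, AGO4, and DICER1) and below 0 for 4 (AGO3, DROSHA, DGCR8, and XPO5). Among all genes with a read in each library the shares were 10.3% and 8.28%, and among those with a mean count of at least 500 they were 15.6% and 12.5%. The sizes were mostly modest. At 1.5-fold, 0 of the 10 genes were higher and 1 lower in H460, where 9.50% of all genes were higher and 10.3% lower. The gene was TNRC6B, 1.58-fold lower, and DROSHA lay just outside at 1.49-fold. In H1299, 2 were higher (AGO2 by 2.41-fold and DICER1 by 1.57-fold) and 0 lower, beside 11.7% and 11.4% of all genes. In A549, 2 were higher (DICER1 by 2.0-fold and AGO2 by 1.52-fold) and 1 lower (DROSHA by 1.52-fold), beside 11.5% and 11.4%. Of the genes with a mean count of at least 500, the shares higher and lower by as much were 3.61% and 4.37% for H460, 8.21% and 7.33% for H1299, and 5.25% and 7.17% for A549.

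Over the 3 cell lines, with the libraries of a cell line taken as a pair, the edgeR quasi-likelihood test called none of the 10 genes (0 higher, 0 lower; threshold, adjusted p of 0.05). It called 0.0% of the 19122 genes tested higher and 0.00523% lower, that is, MALAT1 alone. The smallest adjusted p among the 10 genes was that of DICER1 (log2 fold change 0.70, SE 0.14, adjusted p = 0.113), followed by AGO2 (0.73, SE 0.19, 0.173), DROSHA (-0.48, SE 0.13, 0.176), AGO3 (-0.36, SE 0.10, 0.203), and XPO5 (-0.34, SE 0.10, 0.215). At an unadjusted p under 0.05 there were 6 of the 10 genes, AGO2, AGO4, and DICER1 higher and AGO3, DROSHA, and XPO5 lower, where 15.0% of all genes tested passed. The fit has 2 residual degrees of freedom.

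DESeq2's Wald test, the test named in the study's methods, was the alternative. It called DICER1 (adjusted p = 0.000104) and AGO2 (adjusted p = 0.00593) higher and DROSHA (adjusted p = 0.0386) lower, where it called 2.94% of all genes tested higher and 3.02% lower. All DESeq2 shares in this text are over every gene in the fit. That includes genes that DESeq2 left without an adjusted p, such as DICER1-AS1, so the shares are lower than among genes that could be called. XPO5 (adjusted p = 0.0541) and AGO3 (adjusted p = 0.0624) lay just outside. Without H460 DESeq2 called 5 of the 10 genes higher and 2 lower, beside 7.18% and 6.33% of all genes tested in that fit. Without H1299 it called 2 and 1, beside 1.36% and 2.09%, and without A549 1 and 2, beside 2.42% and 2.15%. DESeq2 kept DICER1 past the threshold without each of the cell lines in turn (adjusted p from 9.67e-07 to 0.00326). AGO2 had an adjusted p of 0.0727 without A549 and a log2 fold change of 0.48 (adjusted p = 0.0327) without H1299, beside 0.75 with all 3 cell lines, and DROSHA had 0.0864 without H460 and 0.182 without A549. The calls without H460 added AGO1, AGO4, and TNRC6A higher and AGO3 and XPO5 lower (adjusted p = 0.0269, 0.00228, 4.07e-06, 0.00631, and 0.00486), and those without A549 were DICER1 higher and AGO3 and XPO5 lower (adjusted p = 0.0220 and 0.0441 for the latter). With no filter on low counts DESeq2 called 2 higher and 3 lower, beside 2.22% and 2.03% of all genes tested.

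Levels of these genes were also compared between the cell lines. With treatment as a covariate, edgeR called a difference between the cell lines for 9 of the 10 genes, where 62.9% of 21771 genes were called. The exception was TNRC6A (adjusted p = 0.107). The 21771 genes include genes with low counts, and the share among genes with a mean count of at least 500 was not taken. That also holds for the shares by pair of cell lines given below. The libraries of a cell line are 1 control and 1 si-MALAT1 library and not replicate cultures, so p-values measure only the spread left after a common treatment effect. DROSHA, the weakest of the calls (adjusted p = 0.0386), lost it with no treatment term (0.231), with no filter on low counts (0.0506), and without the A549 control (0.158), the A549 si-MALAT1 library (0.339), or the H460 control (0.0571). DGCR8 lost its call without the A549 control (0.0567), the A549 si-MALAT1 library (0.0759), or the H1299 si-MALAT1 library (0.0543). TNRC6B lost it without each of the same libraries (0.135, 0.116, and 0.0952) and with no treatment term (0.0681), and DICER1 with no treatment term (0.0572).

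H1299 had the highest levels. Both H1299 libraries were above the other 4 for 7 of the 10 genes, all but AGO4, DROSHA, and TNRC6A, compared with 25.1% of all genes with a read in each library and 26.7% of those with a mean count of at least 500. H1299 was higher than H460 for 6 genes, where 25.9% of all genes were higher: AGO1 by 2.78-fold, AGO2 by 2.36-fold, DICER1 by 2.22-fold, AGO3 by 1.97-fold, XPO5 by 1.48-fold, and DGCR8 by 1.43-fold. Against A549 it was higher for 9 genes, all but TNRC6A, where 24.4% of all genes were higher. AGO1 showed the widest gap there (3.13-fold, edgeR adjusted p = 0.000444) and DROSHA the narrowest (1.47-fold, adjusted p = 0.0280). Between A549 and H460 only AGO4 was called, 2.12-fold lower in A549 (adjusted p = 0.00313), where 17.9% of all genes were lower. The fitted A549 minus H460 log2 difference of AGO2 was 0.01 (SE 0.23) and that of DROSHA was -0.50 (SE 0.16, adjusted p = 0.0507).

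FRS2, KCTD10, and RXRB were the genes whose log2 RLE-scaled counts followed AGO2 most closely over the 6 libraries, with Pearson's r of 0.999, 0.996, and 0.994 among 10816 genes with a mean count of at least 500, here without the condition of a read in each library that left 10514. FRS2, an adaptor of growth factor receptors, went from 1214 to 1435 RLE-scaled reads for H460, from 1783 to 3193 for H1299, and from 1126 to 1553 for A549. As for AGO2, the H1299 si-MALAT1 library stood above the other 5. There were 106 genes with r of at least 0.95, DICER1 had r = 0.936, and the points are 6 libraries that share 3 cell lines, so these values are a description.

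Beside the 10 genes, 68 other genes of the pathway were read in 5 lists, of which 67 were tested and 65 had a read in each library. The edgeR test called 0 of the 67, and 11 passed at an unadjusted p under 0.05, 5 higher and 6 lower, where 7.38% of all genes were higher and 7.59% lower at that level. DESeq2 called 3 higher (IPO8, XRN1, and LIN28B) and 5 lower (KHSRP, METTL3, RAN, TSNAX, and DCP2), beside 2.94% and 3.02% of all genes tested. Only KHSRP and DCP2 of these 8 stayed past the threshold without each cell line in turn (DESeq2 adjusted p at most 0.00680 and 0.0384). Without H1299 the DESeq2 adjusted p was 0.160 for IPO8, 0.243 for XRN1, 0.986 for LIN28B, 0.246 for METTL3, 0.0592 for RAN, and 0.136 for TSNAX. Without A549 it was 0.0526 for XRN1, 0.985 for LIN28B, 0.177 for METTL3, 0.134 for RAN, and 0.170 for TSNAX. Of the 65 genes, 18 were higher and 14 lower in 3 of 3 cell lines, and 33 did not keep 1 direction. These shares are near the 25.0% higher and 20.8% lower among genes with a mean count of at least 500, which also serve for the single lists that follow. The median log2 fold change over the 65 genes was -0.01 in H460, 0.06 in H1299, and 0.04 in A549, beside 0.02, 0.02, and 0.01 over all genes.

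The nuclear processing partners, 13 genes, had 3 higher and 3 lower in the 3 cell lines, and DESeq2 called 0 higher and 2 lower. Both encode proteins that act on primary transcripts. KHSRP, which binds the terminal loop of some hairpins, had within-line log2 fold changes of -0.64 (H460), -0.68 (H1299), and -0.57 (A549) (edgeR adjusted p = 0.0819, DESeq2 adjusted p = 7.18e-06). METTL3, the methyltransferase that marks primary transcripts with m6A, had -0.22, -1.05, and -0.54 (DESeq2 adjusted p = 0.0361). ERH, a DGCR8-binding protein, had 0.06, -0.55, and -0.27 and passed neither test.

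The 5 export and Dicer partners had 0 higher and 3 lower in the 3 cell lines, and DESeq2 called 1, RAN, lower. RAN, the GTPase that loads cargo on XPO5, had within-line log2 fold changes of -0.21 (H460), -0.61 (H1299), and -0.40 (A549) (edgeR adjusted p = 0.203, DESeq2 adjusted p = 0.0264), so that it and XPO5 were both lower in each cell line. ADAR, which edits double-stranded RNA, had -0.13, -0.18, and -0.50, and TARBP2, a DICER1 partner, had 0.47, -0.08, and 0.07. Neither passed a test.

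Of the 13 genes of Argonaute loading and binding, 5 were higher and 4 lower in the 3 cell lines, and DESeq2 called 1 higher and 1 lower. IPO8, an importin that binds Argonaute, had log2 fold changes of 0.32, 0.62, and 0.39 in H460, H1299, and A549 (DESeq2 adjusted p = 0.0123). TSNAX, a subunit of the nuclease C3PO, had -0.24, -0.74, and -1.08 (DESeq2 adjusted p = 0.0123). MOV10, an Argonaute-bound helicase, had 0.05, 0.64, and 0.22 and passed neither test.

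The 24 genes of deadenylation, decapping, and translational repression had 9 higher and 2 lower in the 3 cell lines, and DESeq2 called 1 in each direction. DCP2, the decapping enzyme, had within-line log2 fold changes of -0.47 (H460), -0.36 (H1299), and -0.35 (A549) (DESeq2 adjusted p = 0.00905). XRN1, which degrades the decapped message from its 5′ end, had 0.28, 0.52, and 0.34 (DESeq2 adjusted p = 0.0290). The enzymes of these consecutive steps thus had opposite signs in 3 of 3 cell lines. CNOT6L, a deadenylase, had 0.16, 0.58, and 0.40 and passed neither test.

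Of the 13 genes of microRNA tailing and turnover, 10 had a read in each library, with 1 higher and 2 lower in the 3 cell lines, and DESeq2 called 1 higher. That gene was LIN28B, which blocks the maturation of let-7 microRNAs. LIN28B had 0 reads in both H460 libraries, 11706 reads in the H1299 control and 21613 after si-MALAT1, and 934 and 1667 in A549. Its log2 fold change was 1.02 in H1299 and 0.69 in A549 (edgeR adjusted p = 0.123, DESeq2 adjusted p = 0.00125), and the H460 libraries carry no information on it. TENT2, a poly(A) polymerase of microRNAs, had -0.32, -0.24, and -0.39, and PNPT1, a mitochondrial exonuclease, had 0.05, -0.52, and -0.52. Neither passed a test.

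**Figure D4:**
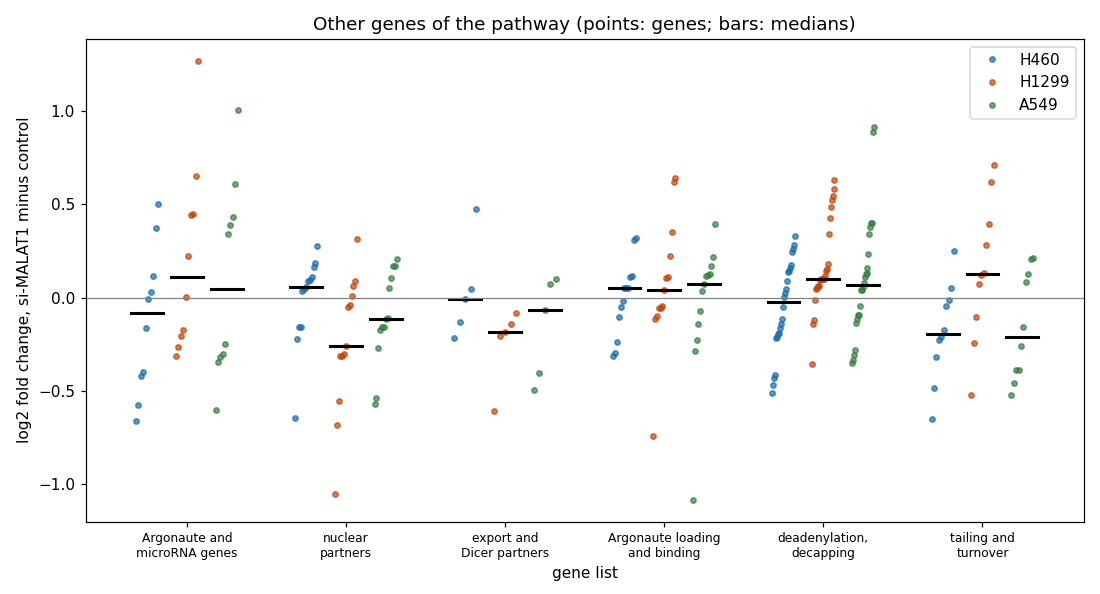
Log2 fold change, si-MALAT1 minus control, by cell line (colors) for the 10 Argonaute and microRNA genes and the 65 genes of the 5 other lists with a read in each library (horizontal axis), with each point a gene and each black bar a median. The points of each list lie on both sides of 0 in most cell lines, and the 5 export and Dicer partners lie below 0 in H1299.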

How the data were processed

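The authors trimmed paired reads from ribosomal RNA-depleted, stranded total RNA libraries, aligned them to hg38 with HISAT 2.1.0, and estimated abundances with StringTie on an NCBI annotation, giving deposited read counts per gene (not normalized) and deposited TPM and FPKM values scaled for length and depth. The paper's methods and the submitters' processing notes name different StringTie versions, and the notes list 1.3.4b. A further 18 columns of other samples were not used. The samples were grouped from their labels. Each si-MALAT1 library shares a cell line with its control, which makes the pairs.

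Counts were tested with edgeR 4.0.16 (quasi-likelihood, TMM, filterByExpr, cell line as block, Benjamini-Hochberg over 19122 genes). DESeq2 1.42.0 was the alternative. Within a cell line, log2 of the RLE-scaled count plus 1 was compared, with exact 95% Clopper-Pearson intervals, which cover counting error only. Those intervals take the StringTie read counts as independent reads. The edgeR fits were tested on simulated data. In the 5 other lists, the 3 genes with the smallest edgeR p were named, as were the 3 genes most like AGO2 and MALAT1. The 10 genes and the lists were chosen with earlier results of these data known. 3′ UTRs came from the deposited transcript models and hg38. R 4.3.3, Python 3.11.15, and scipy 1.17.1 were used. A further marker gene is not reported here.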

Additional observations from a re-analysis of the deposited data

Results flagged for a closer look

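Among the genes of the pathway named in the text, ERH, TARBP2, and PNPT1 had counting intervals on opposite sides of 0 in different cell lines. The difference between cell lines was not tested, since each has 1 library per condition. ERH was higher in H460 and lower in H1299 and A549, and its log2 fold change in H460 was 0.611 above that in H1299. TARBP2 was higher in H460 and lower in H1299, 0.557 apart. PNPT1 was higher in H460 and lower in H1299 and A549, 0.576 between H460 and H1299. For ERH and PNPT1 the H460 change itself was small (0.06 and 0.05). The deposited TPM of both went the other way in H460, from 117 to 111 for ERH and from 24.1 to 23.5 for PNPT1. For TARBP2 the H1299 TPM was 43.8 in the control and 43.9 after si-MALAT1, so it was not lower there on TPM. In all, 26 of the 65 other pathway genes (40.0%) had intervals on both sides of 0, beside 33.3% of the genes with a mean count of at least 500.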

How the results depend on the processing

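The fitted log2 fold changes of the 10 genes kept their direction in 120 of 120 alternatives, among them the unpaired fit with no replicate block. All these fits reuse the same libraries, so this is no independent check. With edgeR, 0 of the 10 genes and 0 of the 67 other tested genes were called under each scaling, with no filter on low counts, without each cell line, and with no replicate block, which gave every one of the 10 genes an adjusted p of 1. DESeq2 called 2 of the 10 genes higher and 1 lower, and with no filter 2 and 3 (2.22% and 2.03% of all genes), adding AGO3 and XPO5. Leaving out each cell line in DESeq2, a choice made after seeing the data like the fit with no filter, gave 1 to 5 higher and 1 to 2 lower, where 1.36% to 7.18% of all genes were higher and 2.09% to 6.33% lower. Of the other pathway genes DESeq2 called 3 higher and 5 lower, with no filter 3 and 6, and without each cell line 0 to 7 higher and 2 to 8 lower. At 1.5-fold, the number lower in H460 was 2 instead of 1 with TMM-scaled totals and on TPM, and in A549 it was 0 instead of 1 with library totals and on TPM. On TPM, 2 instead of 4 genes were higher in the 3 cell lines, since AGO4 (-0.15) and TNRC6A (-0.12) were lower in H460. With TMM-scaled or plain library totals, 5 instead of 4 were lower in the 3 cell lines, since TNRC6B was just below 0 in H1299. The causes were not tested. With 2 residual degrees of freedom and 1 library per condition and cell line, an edgeR count of 0 does not show that these genes were unaffected. No scaling moved the median of all genes by 0.1 or more.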
